A study of Rattus norvegicus with 3 samples.

Results

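The 10 genes described here are members of the AP-1 transcription factor family and of the immediate early response. They are the FOS genes Fos, Fosb, Fosl1 and Fosl2, the JUN genes Jun, Junb and Jund, the related bZIP gene Atf3, the zinc finger gene Egr1 and the stress response gene Ier3. They were chosen by name, as the gene probes of the array files that carry a listed gene name or an older alias of it. All 10 names were found, among 35491 genes named in the files and on 11 of 41012 probes, with 2 probes for Jund and 1 for each other gene. All 10 genes passed the filter on dim probes, which asks for a signal well above background on all 3 arrays in at least 1 channel. Fosl2 passed it through mix1 alone, so a difference was built into its selection.

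The study set a rat line of induced pluripotent stem (iPS) cells, F65, untreated and grown on irradiated mouse embryonic fibroblasts, against adult rat cells. The adult sample, mix1, combined cultured bone marrow cells with primary ear fibroblasts, both grown in medium with serum. The 3 iPS F65 samples carried the dye Cy3 and mix1 carried Cy5, and each iPS sample shared 1 dual-colour Agilent array with mix1. Rat strain, age and passage are not given in the labels, nor is it stated that the 3 samples came from separate cultures, so every p-value rests on a spread among samples that may be purely technical. iPS F65 stands for 1 line, mix1 is 1 pooled control sample with no spread of its own, and the dyes were never swapped. An effect of the dyes therefore cannot be told apart from the difference between the cells.

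AP-1 is a dimer of basic leucine zipper (bZIP) proteins. JUN proteins can pair with each other, with FOS proteins or with ATF proteins, whereas FOS proteins need a partner, and the dimers bind a short palindromic DNA element in many genes of growth, matrix remodelling and inflammation. Fos, Egr1, Junb and Ier3 are classical immediate early genes: serum, growth factors or stress switch them on within minutes, without new protein synthesis, through MAP kinases and the serum response factor SRF acting at CArG boxes. In fibroblasts and macrophages AP-1 is a well-known regulator of proliferation, metalloproteinases and cytokines.

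The array reads each gene through a 60-base probe, and the probes of Fos and of Jund (its second probe) are shown because they lie in the part that makes these proteins AP-1 subunits. The capitals mark leucine triplets that recur every 21 bases in an open reading frame, the spacing of a leucine zipper. There are 3 in each of these probes. The probe of Junb is shown because it ends in a stop triplet, in capitals, and so reads the very end of the coding sequence. Letters are those of the array files, with positions in the array design's build, rn3.
Fos, chr6:109564555-109564614, plus strand: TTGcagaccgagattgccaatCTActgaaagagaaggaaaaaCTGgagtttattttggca
Jund, chr16:19240331-19240390, minus strand: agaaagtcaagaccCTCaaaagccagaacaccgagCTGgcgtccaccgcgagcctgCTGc
Junb, chr19:24837607-24837666, plus strand: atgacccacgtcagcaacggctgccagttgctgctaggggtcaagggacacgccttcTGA
Over the 55 pairs of the 11 probes the longest identical run was 9 bases, between Fosl2 and Ier3.

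Most of these genes were far lower in iPS F65 than in mix1. A gene was called lower or higher on 2 conditions. They were a Benjamini-Hochberg adjusted p under 0.05 over all 21765 genes tested (limma) and a change of at least 2-fold, which is 1 on the log2 scale. An adjusted p under 0.05 was reached by 20792 of these genes, so the p-values hardly separate 1 gene from another. Of the 10 members, 9 were lower in iPS F65 than in mix1, against a background of 24.5% of all genes tested. The remaining member was Atf3, and no member had a ratio above 0, where 30.9% of all genes tested were called higher. A log2 ratio of -4 or below, a 16-fold difference, was reached by 6 members (Ier3, Fos, Jund, Junb, Jun and Egr1), against 6.51% of all genes. Jund reached it on its brighter probe only, and with spots of uneven background left out it stood at -3.66, which leaves 5 members. The median log2 ratio of the 10 members was -4.43, beside 0.25 for all genes tested. In bulk RNA, fewer expressing cells and less RNA per cell cannot be told apart.

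**Figure D1:**
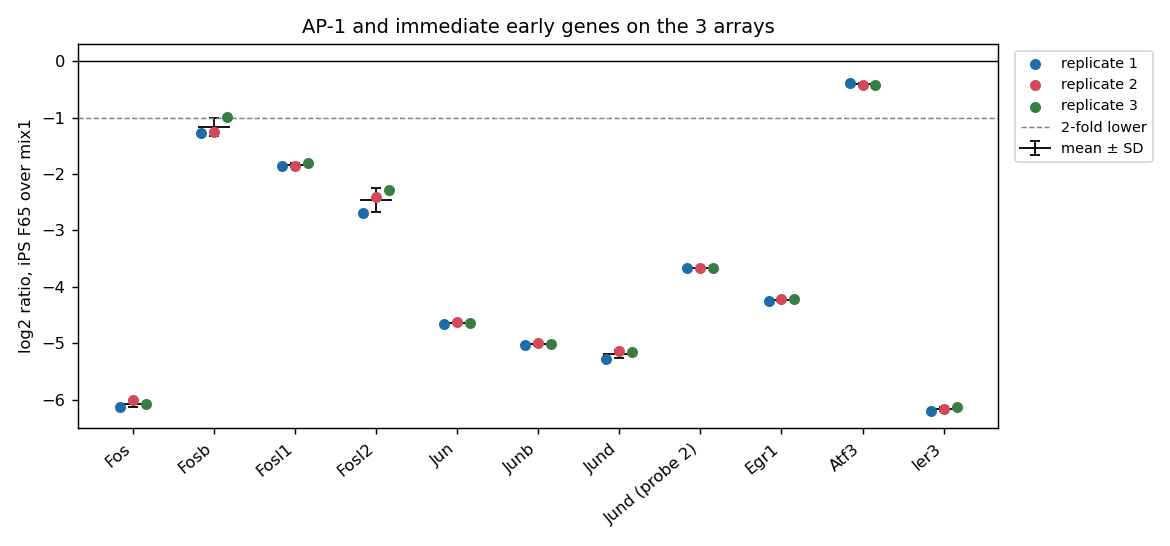
Log2 ratio of iPS F65 over mix1 for the 11 probes (horizontal axis) on each of the 3 arrays (coloured points), with the mean and SD (black) and a dashed line at 2-fold lower. All points lie below 0, the 3 arrays nearly coincide for most genes, and only Atf3 stays above the dashed line on every array.

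Fos, the founding FOS subunit and a textbook readout of serum stimulation, had processed signals of 515, 650 and 651 in iPS F65 on the arrays of replicates 1, 2 and 3. In mix1 they were 36000, 42050 and 43910. The channels did not overlap: every iPS value was far below every mix1 value. The log2 ratio was -6.07 ± 0.06 (SD, n = 3), a 67.3-fold difference (limma, adjusted p = 5.52e-06). Both channels of all 3 arrays read Fos well above background, so a Fos signal remained in the iPS samples.

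The other FOS genes were called lower as well, Fosl2 with only a bound on its difference. Fosl1, which encodes Fra-1, a subunit with no transactivation domain of the c-Fos type that accumulates in growing and invasive mesenchymal cells, gave 2000, 2301 and 2290 in iPS F65 against 7272, 8363 and 8004 in mix1. Its log2 ratio was -1.84 ± 0.03, 3.59-fold lower (adjusted p = 8.93e-06). Fosb, an inducible subunit best known from neurons, gave 220, 207 and 279 against 527, 495 and 553. Its log2 ratio was -1.17 ± 0.16, 2.25-fold lower (adjusted p = 0.00051), and on the array of replicate 3 it was -0.98, under 2-fold. Fosl2, which encodes Fra-2, was not well above background in iPS F65 on any array, with signals of 34.96, 52.1 and 56.5, against 226, 276.5 and 274 in mix1. Against the dimmest processed signals still above background it was at least 3.92-fold lower. The adjusted p of 0.000142 (limma) belongs to its log2 ratio without this bound, -2.46 ± 0.21. That bound sets the mean of the bright channel against the mean, per array, of the higher of the dim signal and the lowest signal well above background. The calls of Fosb and Fosl2 ended when the local backgrounds were used as given with limma's normexp correction. Their log2 ratios were then -0.57 (adjusted p = 0.154) and -0.60 (adjusted p = 0.245). The bound of Fosl2 holds for the processed signals only. With normexp and uneven backgrounds replaced its log2 ratio was -1.50, and without background subtraction -1.45, both smaller differences.

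All 3 JUN genes were called lower, Jund on both of its probes. Jun, which encodes c-Jun, the main partner of FOS proteins, was printed on 10 spots of each array. Its mean signals were 1273, 1445 and 1464 in iPS F65 and 31960, 35780 and 36350 in mix1. The log2 ratio was -4.64 ± 0.01 (24.9-fold, adjusted p = 5.37e-06), and between the spots of 1 array its SD was 0.03 to 0.04, over 7 spots kept on the array of replicate 1 and 10 on each of the others.

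Junb, a subunit that can oppose c-Jun and that is strongly induced by cytokines and serum, had signals of 534, 606 and 594 in iPS F65. In mix1 they were 17470, 19380 and 19130, and the log2 ratio was -5.01 ± 0.02 (32.3-fold, adjusted p = 5.37e-06). Jund, generally the most steadily expressed JUN gene and the least dependent on stimulation, was no exception to this direction. Its brighter probe gave 3035, 3786 and 3850 against 117700, 133400 and 137300, a log2 ratio of -5.19 ± 0.08 (36.5-fold, adjusted p = 6.12e-06). The probe over the leucine zipper, whose start lies 629 bases away on chromosome 16, gave 367, 431 and 420 against 4657, 5464 and 5322, a log2 ratio of -3.66 ± 0.00 (12.7-fold). Both probes were called lower, but their ratios differed by -1.61, -1.48 and -1.49 on the 3 arrays, far beyond the spread between arrays. The size of the Jund difference therefore depends on the probe.

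Egr1, a zinc finger factor and the standard immediate early gene of the SRF pathway, was also printed on 10 spots of each array. Its mean signals were 2557, 2987 and 2962 in iPS F65 and 48500, 55750 and 55040 in mix1, and the channels did not overlap. The log2 ratio was -4.23 ± 0.02 (18.7-fold, adjusted p = 5.37e-06), with an SD of 0.03 between the spots of an array. The probe lies on chromosome 18 at 27373819 to 27373878 (rn3).

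Ier3, which encodes a short-lived protein of the stress and survival response that is induced by NF-kappaB and growth factors, had the lowest ratio among the members measured in both channels. Its signals were 661, 756 and 770.5 in iPS F65 and 48640, 54450 and 54210 in mix1. The log2 ratio was -6.17 ± 0.03 (72.0-fold, adjusted p = 5.37e-06), and its probe lies on chromosome 20 at 3077059 to 3077118. Across the 3 arrays the ratios of Ier3 (-6.20 to -6.14) and Fos (-6.13 to -6.02) came close to each other without overlapping.

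Atf3 stood apart from the other 9 genes. It encodes a bZIP protein that pairs with JUN proteins, is induced by many kinds of stress and often represses transcription as a homodimer. Its signals were 4206, 4471 and 4529 in iPS F65, against 5451, 6008 and 6059 in mix1. The iPS values were lower on every array, without overlap, but by little: the log2 ratio was -0.41 ± 0.03, 1.33-fold (adjusted p = 0.000211), so the gene missed the 2-fold limit. Because the median of all genes lay at 0.25, Atf3 was -0.68 with each array's median set to 0. Over the 13 alternative settings it lay between -0.84 and -0.40 and was called in none. The probe lies on chromosome 13 at 107380795 to 107380853.

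**Figure D2:**
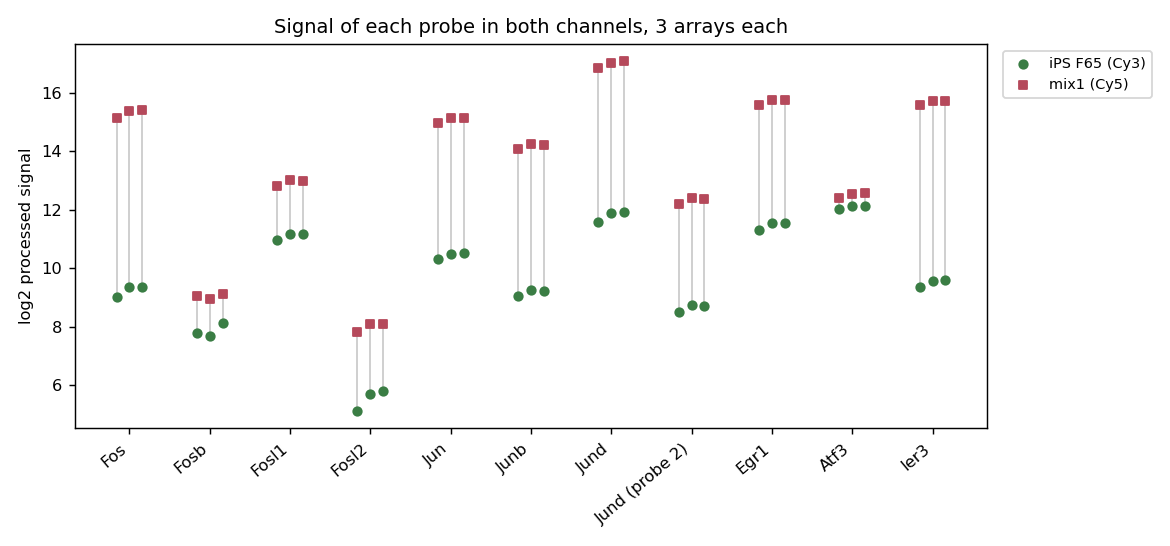
Log2 processed signal of each probe in iPS F65 (circles, Cy3) and in mix1 (squares, Cy5), joined per array, for the 3 arrays side by side. The gap between the symbols is the ratio: it is widest for Ier3 and Fos and narrowest for Atf3, and the level of different probes is not comparable.

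Of the 9 members well above background in both channels, the order of the ratios from lowest to highest was Ier3, Fos, Jund, Junb, Jun, Egr1, Fosl1, Fosb and Atf3, and no neighbours in it overlapped across the 3 arrays. Fosl2, with only a bound, has no measured place in it. Part of that order moved with the preparation of the signals. Junb and Jun changed places when normexp was used on backgrounds as given. Jund fell behind Jun when its probes were averaged or when spots with an uneven background were left out, which left only its second probe (-3.66). Ier3 and Fos at the low end and Fosb and Atf3 at the high end kept their places in each of the 13 alternatives.

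**Figure D3:**
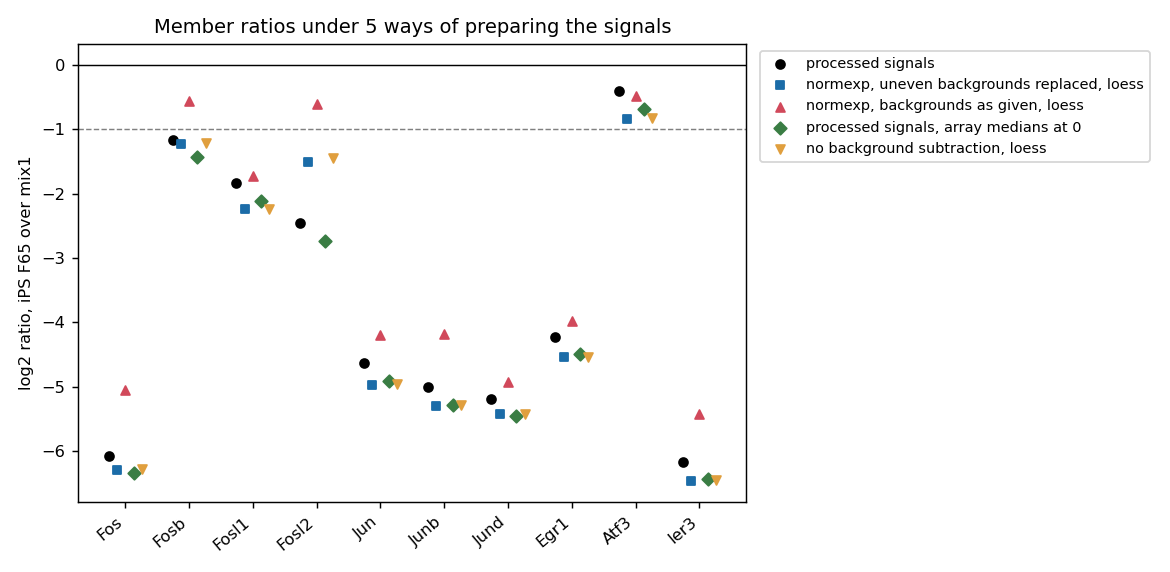
Log2 ratio of each member under 5 ways of preparing the signals (symbols). Ier3, Fos, Jund, Junb, Jun and Egr1 stay below -3.9 in all 5, while Fosb and Fosl2 rise above the dashed 2-fold line only with normexp on backgrounds as given, and Atf3 lies above that line in all 5.

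Promoter sequences of 6 members could be matched by symbol in RefSeq (GRCr8): Fosb, Fosl1, Fosl2, Junb, Jund and Egr1. Each spans 250 bases before and 50 after the gene's start, and both strands were searched for the CArG box of SRF, the AP-1 element TGAGTCA, the CRE element TGACGTCA, which ATF and CREB proteins bind, and TATAAA. No match overlapped a match to another motif in these windows. Egr1 held 2 CArG boxes, at -105 and -83 from its start, and none of the other windows searched held one, where 1.64% of all 33469 promoters did. The promoters of Fos, Jun, Atf3 and Ier3 had no entry and were not searched. TGACGTCA was found in Jund (1.83% of all promoters) and TATAAA in Junb and Fosb (14.2%). TGAGTCA was not in any of the 6 windows and was in 4.63% of all promoters. A match is a description of these letters only. The 250 bases before the starts of Junb and Jund are shown, as the JUN promoters with a match, because both genes were lower by more than 30-fold on their brighter probe while their promoters held different elements. Capitals mark TATAAA in Junb and TGACGTCA in Jund.
Junb, chr19:40080876-40081125, plus strand: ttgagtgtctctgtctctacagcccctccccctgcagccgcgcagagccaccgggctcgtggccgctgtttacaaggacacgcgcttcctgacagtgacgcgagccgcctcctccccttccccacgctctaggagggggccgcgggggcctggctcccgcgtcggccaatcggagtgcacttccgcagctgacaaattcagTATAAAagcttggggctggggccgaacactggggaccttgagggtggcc
Jund, chr16:18769772-18770021, minus strand: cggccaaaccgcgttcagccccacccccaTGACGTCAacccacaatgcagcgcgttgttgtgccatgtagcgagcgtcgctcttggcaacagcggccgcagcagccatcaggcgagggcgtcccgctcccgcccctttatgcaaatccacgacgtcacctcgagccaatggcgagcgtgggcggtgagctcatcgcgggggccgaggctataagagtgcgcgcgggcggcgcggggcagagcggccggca

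Genes of the signalling layer upstream were called at shares near the background. Of 27 tested genes of a list of MAP kinases, their substrates and the SRF module, 6 were lower (22.2%, against 24.5% of all genes) and 7 higher (25.9%, against 30.9%), with a median log2 ratio of -0.10. Elk3, an SRF partner of the ETS family, was at least 67.0-fold lower, and the SRF coactivator gene Mrtfa was lower at -2.06 ± 0.04, as was Mapk3, which encodes ERK1, at -1.48 ± 0.02. Srf itself had a log2 ratio of -0.93 ± 0.02, just short of 2-fold, but it was called lower in 4 alternatives: with normexp and uneven backgrounds replaced (-1.21), with array medians at 0 (-1.20), without background subtraction (-1.21) and as the mean over its probes (-1.79). In the other direction Map2k6, a kinase of p38, stood at 2.60 ± 0.08, Csnk2a1, a catalytic subunit of casein kinase 2, at 1.91 ± 0.04, and Mapk8, which encodes the c-Jun kinase JNK1, at 1.64 ± 0.04. Calls of Elk3 and Map2k6 ended with normexp on backgrounds as given, at -3.58 (adjusted p = 0.0734) and 1.08 (adjusted p = 0.0911). The number of these genes called higher was 3 or 4 in the settings based on mean signals and loess.

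Possible bZIP partners of AP-1 were divided. Of 20 tested, 9 were lower (45.0%, against 24.5% of all genes) and 3 higher (15.0%, against 30.9%), with a median of -0.68. In iPS F65 16 of the 20 were well above background on all arrays. When both channels had to be, 5 were lower, beside 3230 of all 17228 genes then tested. The bZIP factors Maf and Batf, both known from immune cells, were at least 20.3-fold and 12.6-fold lower. Jdp2, a JUN dimerisation protein that represses AP-1 targets, was at least 11.6-fold lower. These 3 calls ended with normexp on backgrounds as given, where adjusted p was 0.164 for Maf, 0.203 for Batf and 0.193 for Jdp2. Atf1, a CREB family factor, was higher at 1.74 ± 0.02, and it was 1 of 3 higher partners, a count of 1 in each of the 4 settings that rescaled the dyes or changed the background correction.

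The other immediate early transcription factors went with the members. Of 19 tested, 16 were lower (84.2%, against 24.5% of all genes) and 1 higher (5.26%, against 30.9%), with a median of -4.78. In iPS F65 16 of the 19 were well above background on all arrays, the others having passed the filter through mix1 alone. When both channels had to be, 13 were lower, beside 3230 of all 17228 genes then tested. Id3, an inhibitor of helix-loop-helix factors, was lowest at -6.36 ± 0.06, followed by the Krüppel-like factor Klf2 at -5.74 ± 0.08 and Cebpd, a bZIP factor of acute inflammation, at -5.60 ± 0.02. Myc (-5.55 ± 0.02), Klf4 (-5.12 ± 0.01) and the orphan receptor gene Nr4a1 (-5.10 ± 0.04) lay close behind. The exception was Klf10, a TGF-beta inducible factor, higher at 1.51 ± 0.02. The call of Klf2, well above background in iPS F65 on 2 of 3 arrays, ended with normexp on backgrounds as given (-3.14, adjusted p = 0.0606).

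Effectors of the immediate early response followed the same direction in 30 of 36 tested genes (83.3%, against 24.5% of all genes), with 1 higher (2.78%, against 30.9%) and a median of -3.69 (-3.54 where genes below background take their bound). In iPS F65 29 of the 36 were well above background on all arrays. The others passed the filter through mix1, where they are high. With both channels required 23 were lower, beside 3230 of all 17228 genes then tested. The chemokine gene Ccl2 was at least 3308-fold lower and Cxcl2 at least 852-fold, and Ccn2, which encodes connective tissue growth factor, stood at -9.53 ± 0.03. Dusp1, the phosphatase that switches off MAP kinases after stimulation, was lower at -7.33 ± 0.14, and Ccn1, a matricellular growth factor, at -6.40 ± 0.00. Homer1, a scaffold of synapses, was the higher gene at 1.71 ± 0.04, and its call ended with normexp on backgrounds as given (0.94).

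Known target genes of AP-1 were nearly all lower too. Of 37 tested, 33 were lower (89.2%, against 24.5% of all genes) and 4 higher (10.8%, against 30.9%), with a median of -5.48 (-5.35 where genes below background take their bound). Only 27 of the 37 were well above background on all arrays in iPS F65, so the other 10 were tested because they are high in mix1. With both channels required 23 were lower, beside 3230 of all 17228 genes then tested. The metalloproteinase gene Mmp3 was at least 274-fold lower and the growth factor gene Fgf7 at least 154-fold. Lox, which encodes the collagen cross-linking enzyme lysyl oxidase, stood at -8.73 ± 0.04, and Ccnd1, the cyclin gene through which AP-1 promotes entry into the cell cycle, at -5.40 ± 0.01. Krt18, a keratin of simple epithelia, was higher at 3.00 ± 0.10, a call that ended with normexp on backgrounds as given (1.25, adjusted p = 0.0677). Many genes of this list are also genes of connective tissue and macrophages, so it does not describe AP-1 alone.

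**Figure D4:**
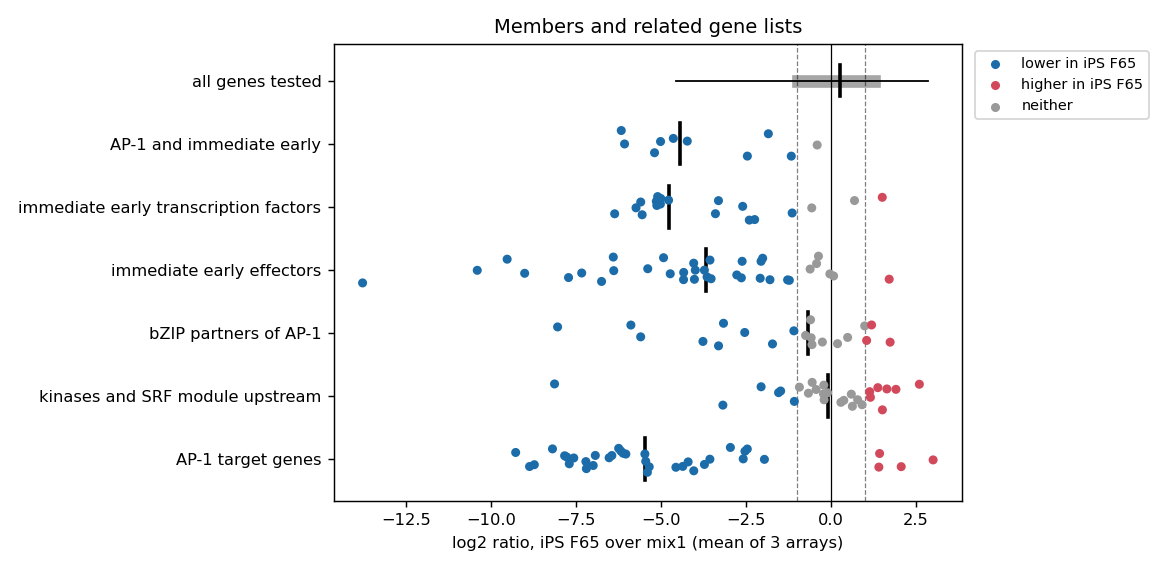
Log2 ratio of iPS F65 over mix1 (mean of 3 arrays) for each tested gene of the 10 members and of 5 related lists, coloured by call, with the list median as a black bar and dashed lines at 2-fold. The top line shows all 21765 genes tested (bar, 25th to 75th percentile, -0.97 to 1.25; line, 5th to 95th percentile, -4.57 to 2.84). The members, the immediate early lists and the AP-1 targets lie mostly to the left of it. The kinases spread around 0, and the bZIP partners are divided, with a median of -0.68.

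Markers of fibroblasts and of macrophages were mostly lower as well, those of pluripotent cells were mostly higher, and the remaining marker lists were divided. Fibroblast markers were lower in 16 of 16 tested (median -7.45, 100% lower, against 24.5% of all genes). Among them were Col3a1 (-10.09 ± 0.05) and Postn, which has only a bound (at least 482-fold). Col3a1 had no value when spots with uneven background were left out. In iPS F65 13 of the 16 were well above background. Their summed signal was 27720 to 33950 in iPS F65 and 2332000 to 2910000 in mix1. The labels do not say whether the fibroblast feeder layer was removed before RNA was extracted. Macrophage and myeloid markers were lower in 11 of 12 tested (91.7%, against 24.5% of all genes). Only 6 of the 12 were well above background on all arrays in iPS F65, so the others were tested because they are high in mix1. The summed signal of these markers was 4150 to 5300 in iPS F65 against 266900 to 310500 in mix1. Mrc1 and Aif1 led them (at least 87.5-fold and 144-fold, both calls lost with normexp on backgrounds as given, adjusted p = 0.0659 and 0.0510). Of the pluripotent cell markers 8 of 9 tested were higher (88.9%, against 30.9% of all genes). In mix1 6 of the 9 were well above background on all arrays, the others having passed the filter through iPS F65 alone. Epcam was at least 28.3-fold higher (a call that ended with normexp on backgrounds as given, adjusted p = 0.123), and Nr0b1 stood at 4.87 ± 0.05. Under the same setting Pou5f1 (0.61), Cdh1 (0.55) and Dppa4 (0.60) lost their calls as well. Nanog, Zfp42, Dppa5, Utf1 and Gdf3 had no probe under these names, and Esrrb and Fgf4 were too dim to test. Of erythroid and lymphoid markers 3 of 12 with a probe could be tested, with Klf1 (2.27 ± 0.02) and Lck (1.04 ± 0.05) higher and Gzmb at least 1.74-fold lower. Of endothelial markers 4 of 10 could be tested, with Tek at least 4.16-fold higher, and Eng (-4.49 ± 0.03) and Tie1 (at least 1.65-fold) lower. The calls of Klf1, Lck, Gzmb, Tek, Eng and Tie1 ended with normexp on backgrounds as given. That of Tie1 also ended without replicate 1 (-0.25) and with no filter on dim probes (-0.50), and that of Gzmb without background subtraction (-0.98). Lck lost its call with array medians at 0 (0.76), with normexp and uneven backgrounds replaced (0.52) and without background subtraction (0.52) as well. The part of feeder cells, of cell composition and of growth in serum in the members' ratios was not tested.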

How the data were processed

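Per the file headers, spots were read with Agilent Feature Extraction 9.5.3.1. All 3 arrays lie on 1 slide from 1 scan, which leaves no batch to test. The deposited processed intensity signals had a fitted background surface subtracted and the dyes normalized by that software, with LOWESS settings and surrogate values for dim spots switched on, per the file headers. The mean and local background intensity columns that the authors deposited carry no normalization. The log2 values that the authors deposited as a series matrix equal log2 of Cy3 (iPS F65) over Cy5 (mix1) processed signals for all 41012 probes, within 3.11e-06.

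That log2 ratio was used here. Control spots and outlier-flagged spots (204 to 213 of 43379 per array) were left out, no spot was saturated, and spots of a probe were averaged. Well above background is the software's flag, which held for 57.1% to 61.2% of gene spots in iPS F65 and 58.3% to 62.1% in mix1. A probe was tested if it held on all 3 arrays in at least 1 channel (25801 probes), and a gene was represented by its brightest probe. Probes were renamed through RefSeq (GRCr8) by accession (10852 probes), symbol (5546), older name (3704) or gene number (1205), and 19705 kept the file's name. Of the 21765 genes tested, which give the shares of all genes, 11447 carried a gene symbol. In R 4.3.3, limma 3.58.1 tested each mean ratio against 0 through lmFit and eBayes; mix1 counts as 1 control sample. Bounds used Aquantile-normalized channels of the processed signals, so each fold given as at least holds for those signals only. Other background settings gave smaller differences for some of these genes, as for Jdp2 (log2 ratio -2.74 with normexp and uneven backgrounds replaced). With 3 arrays, their number limits the precision. The calling step was run on simulated ratios for 21765 genes, 200 of them changed: 90% of those changed by 1.5 on the log2 scale were called, 96% at 2, 100% at 3 and 96% at 4. The simulated ratios held only the spread between arrays. They held no dye effect and no spread of the control, so those limits were not checked.

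The members and lists were chosen with earlier results of these data known. Named are all members, for each related list the 3 called genes farthest from 0 in the direction most of it took and 1 called the opposite way (2 and 1 for marker lists), and Myc, Klf4, Nr4a1, Dusp1, Ccn1, Jdp2, Mapk3, Srf, Mrtfa and Ccnd1, which were chosen after their values were seen. A gene that this rule names among the bZIP partners is not reported here.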

Additional observations from a re-analysis of the deposited data

How the results depend on the processing

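Of the 10 members, 9 were called lower in 11 of 13 alternatives; with probes required to be well above background in both channels, 8 of 9 tested were (Fosl2 dropped out), and with normexp on backgrounds as given, 7 were (without Fosb and Fosl2). Leaving out replicate 1, 2 or 3 changed no member's call. Over all genes, 6723 were higher and 5330 lower, so 55.8% of calls were higher. With normexp, uneven backgrounds replaced, and loess it was 3977 higher (41.2% of calls), without background subtraction 3972 (41.3%), and with normexp on backgrounds as given 2353 higher and 2077 lower. Under these 3 settings the all-gene median of the log2 ratio was -0.08, -0.07 and 0.03, against 0.25. With both channels above background 3230 of 17228 genes tested were lower. Of the bZIP partners, 1 was higher with either normexp setting, without background subtraction or with array medians at 0, and 5 with no filter on dim probes; 3 were lower with normexp on backgrounds as given and 5 with both channels above background. Of the kinase list 4, 3 and 4 were higher with normexp and backgrounds replaced, normexp as given and no subtraction. Of the effectors, 0 were higher with normexp as given, where Homer1 stood at 0.94. Lower calls fell under that setting too. They went from 16 to 12 for the other immediate early transcription factors, from 30 to 22 for the effectors and from 33 to 25 for the AP-1 targets. Over all genes they went from 5330 to 2077. The cause of these changes was not tested. No paired analysis was possible because all 3 samples form 1 group against 1 shared control. Signal over background limits Fosl2, which has only a bound.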
